A study of Mus musculus with 12 samples.

Results

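The 34 genes described here encode the enzymes that build cholesterol and fatty acids from acetyl-CoA, together with the regulators that control them. They were taken as a fixed list of genes known to be regulated by the sterol regulatory element-binding proteins (SREBPs) and not by a threshold on measured values, although earlier results of these data were known when the list was set, out of 33246 genes counted. The list was divided into a sterol branch of 18 genes, a fatty acid branch of 10 genes, and 6 genes for regulators and sterol transport. The samples were primary fibroblasts from mouse ear, isolated from 1-month-old mice and used at passage 2, grown for 48 h on alginate gels and sequenced as RNA. The 4 groups of 3 biological replicates were 2 kPa Elastic, 20 kPa Elastic, 2 kPa Viscoelastic and 20 kPa Viscoelastic. Elastic gels were covalently crosslinked alginate, and viscoelastic gels were ionically crosslinked with calcium and relaxed slowly under stress. Viscoelasticity and crosslinking chemistry, calcium included, thus changed together and cannot be told apart in these groups. Below, viscoelasticity stands for this difference between the gel types. The methods name C57BL/6 mice of both sexes and Tau-EGFP reporter mice as sources of fibroblasts, and the labels do not say which animals gave each sample, so the p-values measure the spread between these samples. The cells were in serum-containing medium throughout, and neither lipids nor proteins were measured in these data. The study asked whether viscoelasticity changes gene expression in a way that depends on stiffness.

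Cholesterol and fatty acids draw on the same cytosolic pool of acetyl-CoA. SREBP2, encoded by Srebf2, chiefly drives the sterol genes, and SREBP1, encoded by Srebf1, chiefly drives the fatty acid genes. Both precursors sit in the endoplasmic reticulum bound to the escort protein SCAP, and the INSIG proteins hold the complex there when sterols are plentiful. When sterols run low, SCAP carries SREBP to the Golgi apparatus, where the Mbtps1 and Mbtps2 proteases release the active factor.

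Library totals ranged from 36626221 to 43612804 counts, and all 34 members passed the expression filter, along with 14542 genes in total. The lowest count of any member in any sample was 113, and the 34 members together took 0.268% to 0.306% of the counts of a sample. Values are CPM, counts scaled to a common library size after TMM normalization, and a mean is given with the SD of its 3 samples after ±. Genes with a Benjamini-Hochberg adjusted p under 0.05 over all tested genes in edgeR's quasi-likelihood test were taken as differentially expressed. The 7 fibroblast markers summed to 13345 to 16215 CPM in a sample. The 4 cartilage markers, Col2a1 among them, were also high in these cells labelled as fibroblasts, at 3972 to 5577 CPM summed. Their sum ran from 4372 to 5577 CPM on 2 kPa Elastic, 3972 to 4067 on 20 kPa Elastic, 4217 to 5333 on 2 kPa Viscoelastic and 4085 to 5412 on 20 kPa Viscoelastic. It was thus lowest in the 3 samples on 20 kPa Elastic, although Acan alone was highest on 2 kPa Elastic, and the part of these markers in the results below was not tested. Markers of keratinocytes, endothelial cells, leukocytes, melanocytes and muscle each summed to under 8 CPM in every sample. In bulk RNA, fewer cells of a type and less RNA per cell cannot be told apart.

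Members were expressed at very different levels. Per kilobase of exon, the desaturase Scd2 was highest with a mean of 86.6 CPM per kb over the 12 samples. It was followed by Scd1 at 61.2 CPM per kb and by Acly, which makes cytosolic acetyl-CoA from citrate, at 42.2 CPM per kb. The lowest were Tm7sf2, a sterol reductase, at 0.938 CPM per kb, Idi1, which interconverts the isoprene units, at 1.09 and Acss2, which makes acetyl-CoA from acetate, at 1.60. The place of Acss2 rests on its merged exon length of 10163 bases. In mean CPM it was at 16.3, above Mvk at 13.0, Pmvk at 10.4 and Mvd at 9.57. Scd1 and Scd2 are close copies of each other, and the handling of reads that fit several places is not stated, so their split is uncertain. They are neighbours on chr19 (chr19:44394455-44407879 and chr19:44293674-44306864, GRCm38), as are the desaturases Fads1 and Fads2 (chr19:10182888-10196877 and chr19:10062765-10101746). Within a gene the 12 samples lay close together. The highest sample exceeded the lowest by 1.16-fold for Lss, lanosterol synthase, and by 1.83-fold for Idi1, the narrowest and widest ranges of the 34. The heat map of all 34 members shows these small, branch-wise shifts.

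**Figure D1:**
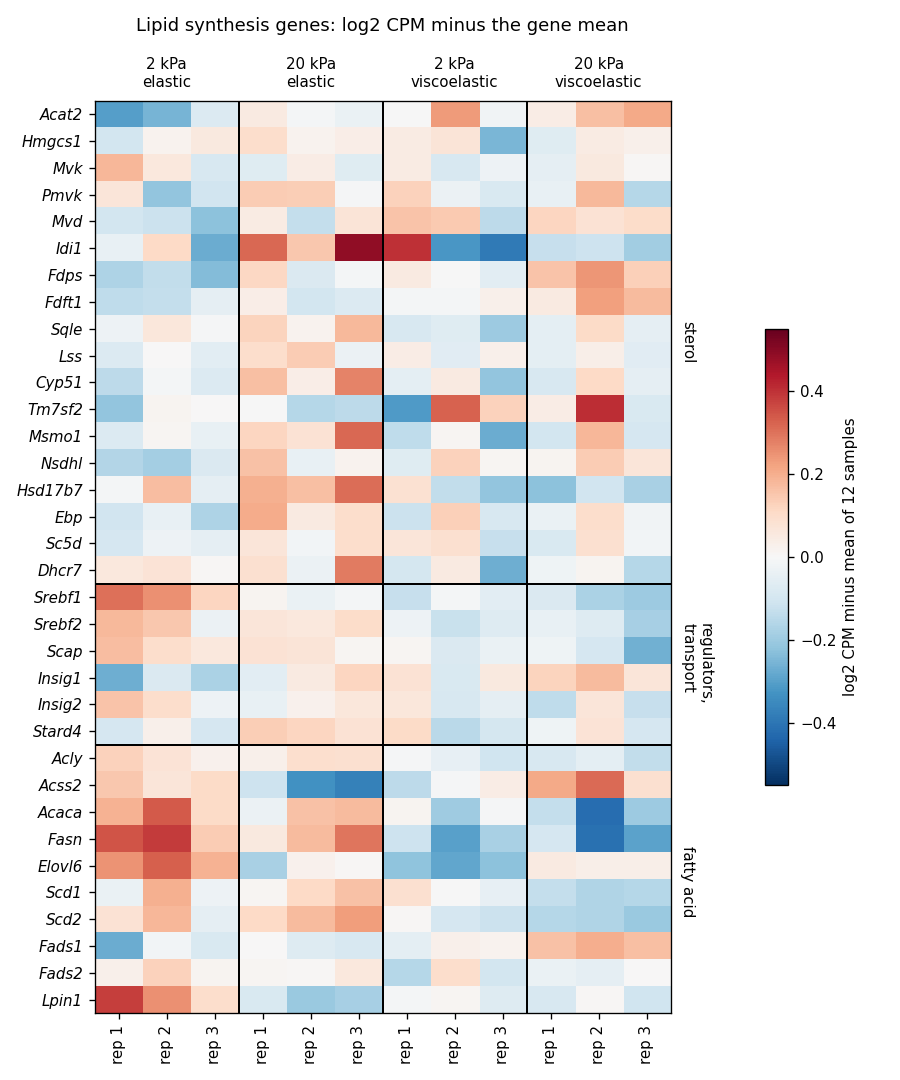
Each row is a member and each column a sample, with 3 replicates for each of the 4 gel groups. Colour is the log2 CPM minus the mean of that gene over the 12 samples, and lines divide the sterol branch, the regulators and transport genes, and the fatty acid branch. Fasn and Elovl6 are highest on 2 kPa Elastic, and most sterol rows are red on 20 kPa Elastic.

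On 2 kPa gels, viscoelasticity lowered part of the fatty acid branch and raised a single sterol gene. In the fatty acid branch, 4 of 10 genes fell and none rose. They were Fasn, which builds palmitate, Acaca, which supplies its malonyl-CoA, Elovl6, which lengthens palmitate, and Lpin1, which makes diacylglycerol and also acts as a coactivator. Among the regulators Srebf1 fell, and in the sterol branch 1 of 18 genes, Acat2, rose and none fell. Altogether 6 of the 34 members changed, 1 up and 5 down, or 17.6% against 19.9% of all genes tested (8.77% up and 11.1% down), so the share changed was near that of the background. The 3 samples of each group did not overlap for 13 members, beside 36.3% of all genes tested.

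Fasn (chr11:120805846-120824547, minus strand) stood at 324, 334 and 281 CPM on 2 kPa Elastic, against 236, 208 and 225 CPM on 2 kPa Viscoelastic. Every elastic sample was above every viscoelastic sample. The log2 fold change was −0.49 (SE 0.091, edgeR adjusted p = 0.00201). For Elovl6 (chr3:129532355-129638495) the samples were at 106, 112 and 102 CPM on elastic and 76.5, 73.2 and 76.3 CPM on viscoelastic gels. The 2 groups were far apart, with a log2 fold change of −0.50 (SE 0.061, edgeR adjusted p = 0.000105), which was the lowest adjusted p of any member in this comparison. Lpin1 was at 67.2, 61.6 and 55.3 CPM on elastic and 51.2, 52.1 and 49.2 CPM on viscoelastic gels, a log2 fold change of −0.27 (SE 0.068, edgeR adjusted p = 0.0119). The 3 elastic samples of Lpin1 were spread widely but did not overlap with the viscoelastic ones. Acaca had means of 96.2 ± 7.85 and 79.5 ± 6.20 CPM, a log2 fold change of −0.28 (SE 0.087, edgeR adjusted p = 0.0365). The other 6 genes of the branch did not pass the test, and of these Fads1 was the only gene with a positive log2 fold change, 0.12.

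Srebf1, whose product drives most of the fatty acid branch, was at 92.2, 88.9 and 81.1 CPM on 2 kPa Elastic. On 2 kPa Viscoelastic it was at 68.5, 74.1 and 71.8 CPM, below all elastic samples, with a log2 fold change of −0.29 (SE 0.059, edgeR adjusted p = 0.00362). Acat2, which joins 2 acetyl-CoA to open the sterol pathway, was at 24, 24.8 and 28.1 CPM on elastic and 29.6, 34.8 and 29.2 CPM on viscoelastic gels. Its groups did not overlap, and the log2 fold change was 0.28 (SE 0.079, edgeR adjusted p = 0.0211). Insig1, a classical SREBP target, had a positive log2 fold change of 0.19 (SE 0.067, edgeR adjusted p = 0.0568), which did not pass, and Srebf2 had −0.17 (SE 0.063, edgeR adjusted p = 0.0625), which did not pass either.

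The count of 6 became 3 without 2 kPa Elastic replicate 1. The calls of Fasn, Elovl6 and Srebf1 held when any of the 12 samples was left out. That of Acat2 was lost without 2 kPa Elastic replicate 1 or 2 or 2 kPa Viscoelastic replicate 2 (edgeR adjusted p up to 0.106), that of Acaca without 2 kPa Elastic replicate 1 or 2 or 2 kPa Viscoelastic replicate 2 or 3 (up to 0.161), and that of Lpin1 without 2 kPa Elastic replicate 1 or 2 kPa Viscoelastic replicate 3 (up to 0.0741). With total counts alone in place of TMM the split was 4 up and 4 down, with Fdps, Nsdhl and Insig1 joining the genes that rose and Acaca not passing, and with an exon length correction it was 0 up and 3 down, with Acat2, Acaca and Lpin1 lost (edgeR adjusted p from 0.0518 to 0.2).

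**Figure D2:**
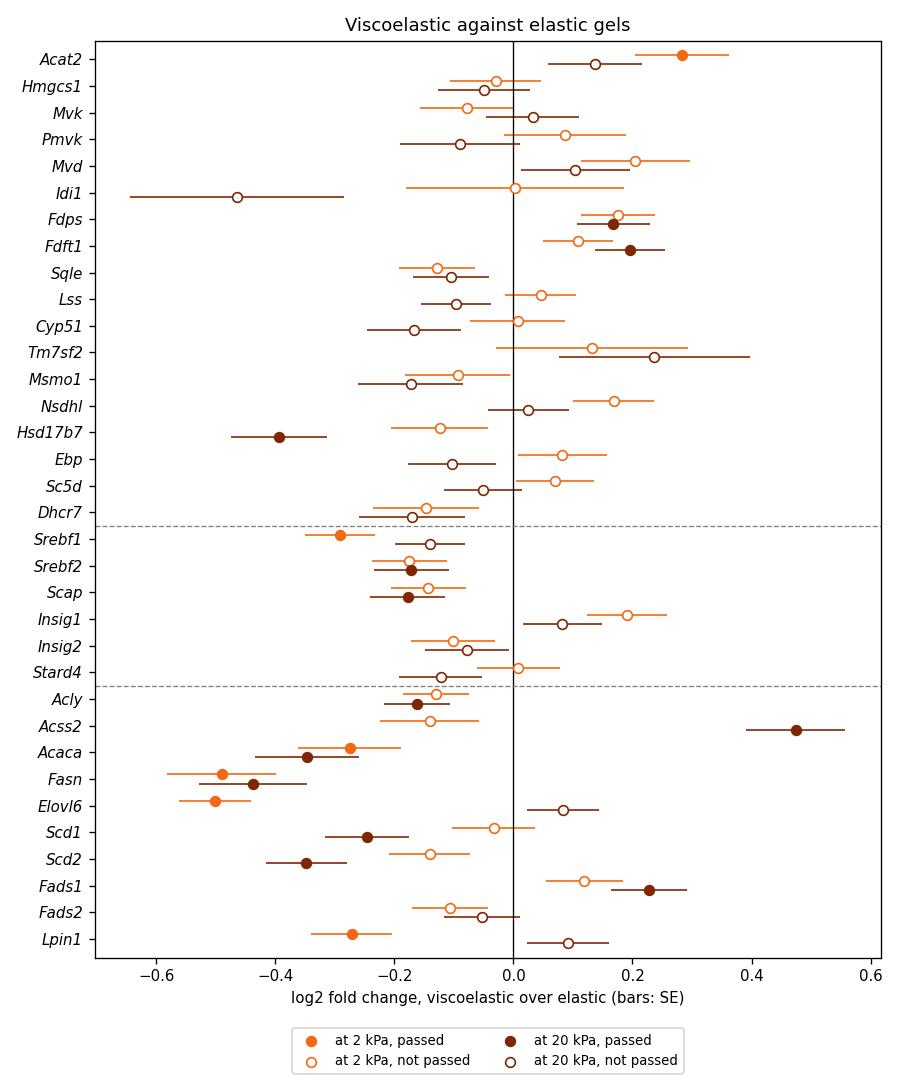
Points are log2 fold changes of each member, viscoelastic over elastic, at 2 kPa (orange) and 20 kPa (brown), with bars of 1 SE from edgeR. Filled points passed an adjusted p under 0.05. Fasn and Acaca are filled and below 0 at both stiffnesses, and Acss2 is the rightmost point, at 0.47 on 20 kPa gels.

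On 20 kPa gels, viscoelasticity changed more members and in both directions within each enzyme branch. In the fatty acid branch 5 of 10 genes fell (Acly, Acaca, Fasn, Scd1 and Scd2) and 2 rose (Acss2 and Fads1). In the sterol branch Fdps and Fdft1, which make farnesyl diphosphate and squalene, rose and Hsd17b7, a sterol ketoreductase, fell. Of the regulators, Srebf2 and Scap fell. Altogether 12 of the 34 members changed, 4 up and 8 down, or 35.3% against 33.5% of all genes tested (17.4% up and 16.1% down). The share changed was thus near that of the background, as at 2 kPa. The samples of the 2 groups did not overlap for 18 members, beside 49.9% of all genes tested.

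Fasn was at 265, 288 and 313 CPM on 20 kPa Elastic, against 239, 192 and 208 CPM on 20 kPa Viscoelastic. As at 2 kPa, the groups did not overlap, and the log2 fold change was −0.44 (SE 0.091, edgeR adjusted p = 0.00223). The stearoyl-CoA desaturase Scd2 was at 508, 532 and 553 CPM on elastic and 422, 420.2 and 409 CPM on viscoelastic gels, a log2 fold change of −0.35 (SE 0.068, edgeR adjusted p = 0.00149). Its close copy Scd1 had means of 319 ± 16.5 and 269 ± 3.42 CPM and a log2 fold change of −0.25 (SE 0.070, edgeR adjusted p = 0.0144). Both desaturases were less spread on viscoelastic than on elastic gels, and neither overlapped. Acaca went from a mean of 89 ± 6.91 to 70 ± 7.13 CPM, with a log2 fold change of −0.35 (SE 0.087, edgeR adjusted p = 0.00719). Acly had a log2 fold change of −0.16 (SE 0.055, edgeR adjusted p = 0.034), with means of 233 ± 5.61 and 209 ± 6.10 CPM.

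Acss2 went the other way from most of its branch. It was at 14.9, 12.8 and 12.4 CPM on 20 kPa Elastic, against 18.6, 20 and 17.2 CPM on 20 kPa Viscoelastic. All viscoelastic samples were above all elastic ones, and the log2 fold change of 0.47 (SE 0.083, edgeR adjusted p = 0.000753) was the highest of the 34 members. In the annotation used here 9.12% of the exon bases of Acss2 are also exon of Acss2os, Ggt7 or Gss. The strand setting of the counting is not stated, which limits its values. Fads1, which desaturates polyunsaturated fatty acids, was at 136, 129 and 128 CPM on elastic and 152, 156 and 152 CPM on viscoelastic gels, a log2 fold change of 0.23 (SE 0.064, edgeR adjusted p = 0.0135). Its neighbour in the same pathway, Fads2, had a log2 fold change of −0.05 (SE 0.064, edgeR adjusted p = 0.556) and did not pass.

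In the sterol branch, Hsd17b7 was at 35.1, 34.4 and 38 CPM on 20 kPa Elastic, against 26.2, 28.5 and 27.1 CPM on 20 kPa Viscoelastic. Its groups were well apart, with a log2 fold change of −0.39 (SE 0.081, edgeR adjusted p = 0.00214). Fdps was at 44.8, 39.1 and 41 CPM on elastic and 46.1, 49 and 45.2 CPM on viscoelastic gels, a log2 fold change of 0.17 (SE 0.061, edgeR adjusted p = 0.047). Fdft1 was at 53.4, 48.5 and 49.5 CPM and 53.8, 60.9 and 58.7 CPM in the same groups, a log2 fold change of 0.20 (SE 0.059, edgeR adjusted p = 0.0195). In the annotation used here 26.7% of the exon bases of Fdps and 18.3% of those of Fdft1 are also exon of another gene, Gm43738 and Ctsb, and since the strand setting of the counting is not stated their values are uncertain. Idi1 had a log2 fold change of −0.46 (SE 0.18, edgeR adjusted p = 0.059), close in size to the changes above but with a large error, and did not pass.

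The precursor gene Srebf2 was at 121, 120.1 and 124 CPM on 20 kPa Elastic, against 112, 109.7 and 102 CPM on 20 kPa Viscoelastic, a log2 fold change of −0.17 (SE 0.063, edgeR adjusted p = 0.0471). Scap was at 58.6, 58.2 and 55.9 CPM on elastic and 54.6, 52.1 and 46.1 CPM on viscoelastic gels, a log2 fold change of −0.18 (SE 0.063, edgeR adjusted p = 0.0414). Both falls were small, near the threshold, and without overlap between the groups. Of the exon bases of Scap 13.2% are also exon of 5830462I19Rik, so its values have the same limit. Srebf1 had a log2 fold change of −0.14 (SE 0.059, edgeR adjusted p = 0.0825) and did not pass at this stiffness. Neither INSIG gene passed, Insig1 at 0.08 and Insig2 at −0.08 on the log2 scale.

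The count of 12 became 5 without 20 kPa Elastic replicate 3 and 7 without 20 kPa Elastic replicate 2 or 20 kPa Viscoelastic replicate 3. The calls of Fasn, Scd2, Acss2, Hsd17b7 and Acaca at 20 kPa held without any sample in turn. Those of Scd1 and Fads1 were lost only without 20 kPa Elastic replicate 3 (edgeR adjusted p of 0.0649 and 0.0553). Those of Fdft1 and Acly were lost without 20 kPa Elastic replicate 2 or 3, without 20 kPa Viscoelastic replicate 3, and without 20 kPa Viscoelastic replicate 2 for Fdft1 (up to 0.0866) or replicate 1 for Acly (up to 0.123). Srebf2 was lost in 8 of 12 such fits, kept only without 2 kPa Elastic replicate 1 or 3 or 2 kPa Viscoelastic replicate 1 or 2 (up to 0.186). Scap was kept in these 4 and also without 20 kPa Viscoelastic replicate 1 (up to 0.201). Fdps was kept only without 2 kPa Viscoelastic replicate 1 or 2 or 20 kPa Elastic replicate 1 (up to 0.197). With total counts alone the split was 4 up and 5 down, since Srebf2, Scap and Acly did not pass. An exon length correction ended the calls of Srebf2, Scap, Acly, Fdps and Acaca (edgeR adjusted p = 0.0538 for Acaca), and put Srebf2 and Scap both at −0.10 on the log2 scale. The rise of Fdps was the least stable call, also lost with DESeq2 size factors (edgeR adjusted p = 0.0662), DESeq2's Wald test (adjusted p = 0.0706), every gene with at least 1 count in the test (0.101), the 6 samples alone (0.0632) and a GC correction (0.0777). With every gene with at least 1 count in the test the calls of Srebf2, Scap and Acly were lost as well (edgeR adjusted p = 0.0741, 0.0654 and 0.0902), and that of Scap also with the 6 samples alone (0.0625).

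Fasn and Acaca were the only members to change at both stiffnesses. These consecutive enzymes, which make palmitate from acetyl-CoA, fell on viscoelastic gels at 2 kPa and at 20 kPa. The fall of Fasn held in each alternative run, while that of Acaca was −0.13 at 2 kPa and −0.19 at 20 kPa with an exon length correction (edgeR adjusted p = 0.2 and 0.0538) and passed at neither. They are 2 of 34 members, where 5.33% of all genes tested fell in both comparisons and 4.26% rose in both. The pairs of groups in these comparisons share no samples. No sterol gene and no regulator passed in both. By sign alone, 6 of 10 fatty acid genes were lower on viscoelastic gels at both stiffnesses and 1 was higher at both, while of 18 sterol genes 5 were lower and 6 higher at both. Of all 14542 genes tested, 7269 had a positive log2 fold change at 2 kPa and 7589 at 20 kPa. The share of all genes with the same sign at both was not counted, so these sign counts have no background.

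Raising stiffness from 2 to 20 kPa on elastic gels lowered 3 of 10 fatty acid genes, Acss2, Elovl6 and Lpin1, and raised none. Srebf1 fell and Insig1 rose. No sterol gene passed edgeR's test, although 16 of the 18 had a positive log2 fold change and 7 had an unadjusted p under 0.05. Of all 14542 genes tested, 7004 had a positive log2 fold change and 4180 an unadjusted p under 0.05. Altogether 5 of the 34 members changed, 1 up and 4 down, or 14.7% against 14% of all genes tested (6.81% up and 7.14% down). The groups did not overlap for 14 members, beside 35.6% of all genes tested. The median log2 fold change of the sterol branch was 0.16, beside −0.07 in the fatty acid branch and −0.0083 over all genes tested. The fatty acid median rested on single samples, at −0.0199 without 20 kPa Elastic replicate 1, −0.027 without 2 kPa Elastic replicate 2 and −0.108 without 2 kPa Elastic replicate 3, and it was −0.0112 with a GC correction, whereas the sterol median ran from 0.125 to 0.176 with a sample left out.

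Lpin1 was at 67.2, 61.6 and 55.3 CPM on 2 kPa Elastic and 48.8, 44.9 and 45.6 CPM on 20 kPa Elastic, with a log2 fold change of −0.40 (SE 0.068, edgeR adjusted p = 0.00148). Acss2 was at 17.9, 16.9 and 17.4 CPM at 2 kPa and 14.9, 12.8 and 12.4 CPM at 20 kPa, a log2 fold change of −0.37 (SE 0.084, edgeR adjusted p = 0.00848). Elovl6 was at 78.8, 90.7 and 89.6 CPM on 20 kPa Elastic, below the 2 kPa samples given above, a log2 fold change of −0.30 (SE 0.061, edgeR adjusted p = 0.00436). None of these 3 genes overlapped between the groups. Srebf1 was at 75.3, 72.9 and 74.1 CPM on 20 kPa Elastic, all below the 2 kPa samples, a log2 fold change of −0.24 (SE 0.059, edgeR adjusted p = 0.015). Insig1 was at 33.8, 38.5 and 36 CPM at 2 kPa and 39.1, 42.1 and 44.2 CPM at 20 kPa, a log2 fold change of 0.21 (SE 0.067, edgeR adjusted p = 0.048). In the sterol branch the values nearest to the threshold were those of Fdps, 0.19 (SE 0.062, edgeR adjusted p = 0.0554), Cyp51, the lanosterol demethylase, 0.24 (SE 0.079, edgeR adjusted p = 0.0601), and Ebp, a sterol isomerase, 0.22 (SE 0.074, edgeR adjusted p = 0.0622).

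This comparison and the viscoelastic one at 2 kPa share the 2 kPa Elastic samples. In the latter, Lpin1, Elovl6 and Srebf1 had the log2 fold changes −0.27, −0.50 and −0.29, and each was highest in that shared group. A marker of adipocytes was highest in the same group, and so was the mean of Cd68, a leukocyte marker. Fabp4, a fatty acid carrier, was at 10.8, 9.80 and 7.91 CPM on 2 kPa Elastic, and its mean in CPM was 5.37 ± 0.498 on 2 kPa Viscoelastic, 5.36 ± 0.563 on 20 kPa Elastic and 5.63 ± 1.14 for the 20 kPa Viscoelastic samples. Its log2 fold change was −0.83 (SE 0.15, edgeR adjusted p = 0.00147) for viscoelasticity at 2 kPa and −0.83 (SE 0.15, edgeR adjusted p = 0.00182) for stiffness on elastic gels. It was the only 1 of 5 adipocyte markers tested, since Adipoq, Plin1, Cidec and Lep had no more than 10 counts in any sample, and the summed markers ran from 7.94 to 10.9 CPM on 2 kPa Elastic and from 4.57 to 6.82 CPM in the other groups. Cd68 was at 6.98, 6.02 and 4.70 CPM on 2 kPa Elastic. Its means were 3.98 CPM on 2 kPa Viscoelastic, 3.97 on 20 kPa Elastic and 3.16 on 20 kPa Viscoelastic. A sample on 20 kPa Elastic reached 5.45 CPM. Of 3 leukocyte markers tested, 1 fell for viscoelasticity at 2 kPa and none passed with stiffness on elastic gels. The other leukocyte markers tested, Lyz2 and Ptprc, had their highest means in other groups. Acan, the cartilage proteoglycan aggrecan, was also highest on 2 kPa Elastic, at 1282, 1611 and 1476 CPM there and no more than 1151 CPM in any sample of the other groups. Its log2 fold change was −0.47 (SE 0.11, edgeR adjusted p = 0.00847) for viscoelasticity at 2 kPa and −0.50 (SE 0.11, edgeR adjusted p = 0.00767) for stiffness on elastic gels. Of the 4 cartilage markers, Acan fell for viscoelasticity at 2 kPa and Acan and the collagen gene Col9a1 fell with stiffness on elastic gels, while Col9a1 rose for viscoelasticity at 20 kPa (0.87 on the log2 scale). The part of adipocytes, leukocytes or cartilage cells in the fall of Lpin1, Elovl6 and Srebf1 was not tested.

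The count of 5 became 3 without 2 kPa Elastic replicate 1 or 20 kPa Elastic replicate 3 and 10 without 2 kPa Viscoelastic replicate 2. The calls of Lpin1, Acss2 and Elovl6 on elastic gels held without any sample in turn. That of Srebf1 was lost without 2 kPa Elastic replicate 1 or 2 or 20 kPa Elastic replicate 2 or 3 (edgeR adjusted p up to 0.0791). That of Insig1 was lost in 7 of 12 such fits and kept only without 2 kPa Elastic replicate 2, 2 kPa Viscoelastic replicate 1 or 2, 20 kPa Elastic replicate 1 or 20 kPa Viscoelastic replicate 2 (up to 0.194), and it was lost with an exon length correction (0.059) and with every gene with at least 1 count in the test (0.0517). The sterol count depended on the method: DESeq2's Wald test called 4 of 18 (Fdps, Cyp51, Nsdhl and Ebp), an exon length correction called the same 4, and total counts alone called 3 (Fdps, Cyp51 and Ebp), all higher at 20 kPa. In the same order these settings called 2285, 2153 and 2011 of all 14542 genes tested, with 1224, 1150 and 1094 of them higher at 20 kPa. The splits over the 34 members were then 5 up and 4 down, 4 up and 4 down, and 4 up and 4 down.

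On viscoelastic gels the same step in stiffness changed 1 of 34 members, or 2.94% against 2.28% of all genes tested (1.58% up and 0.695% down). The groups did not overlap for 8 members, beside 22.3% of all genes tested. Elovl6 rose, from 76.5, 73.2 and 76.3 CPM at 2 kPa to 92.2, 91.1 and 91.2 CPM at 20 kPa, without overlap, a log2 fold change of 0.28 (SE 0.061, edgeR adjusted p = 0.033). The 3 samples on 20 kPa Viscoelastic were within 2 CPM of each other. The call was lost without any 1 of the 6 viscoelastic samples (edgeR adjusted p up to 0.125). Acss2 had a log2 fold change of 0.24 (SE 0.083, edgeR adjusted p = 0.128) and Fdps of 0.18 (SE 0.061, edgeR adjusted p = 0.124), and neither passed. No sterol gene and no regulator passed, and DESeq2's Wald test called none of them either. An unadjusted p under 0.05 was seen for 2 sterol genes and 0 regulators, beside 2768 of all 14542 genes tested.

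**Figure D3:**
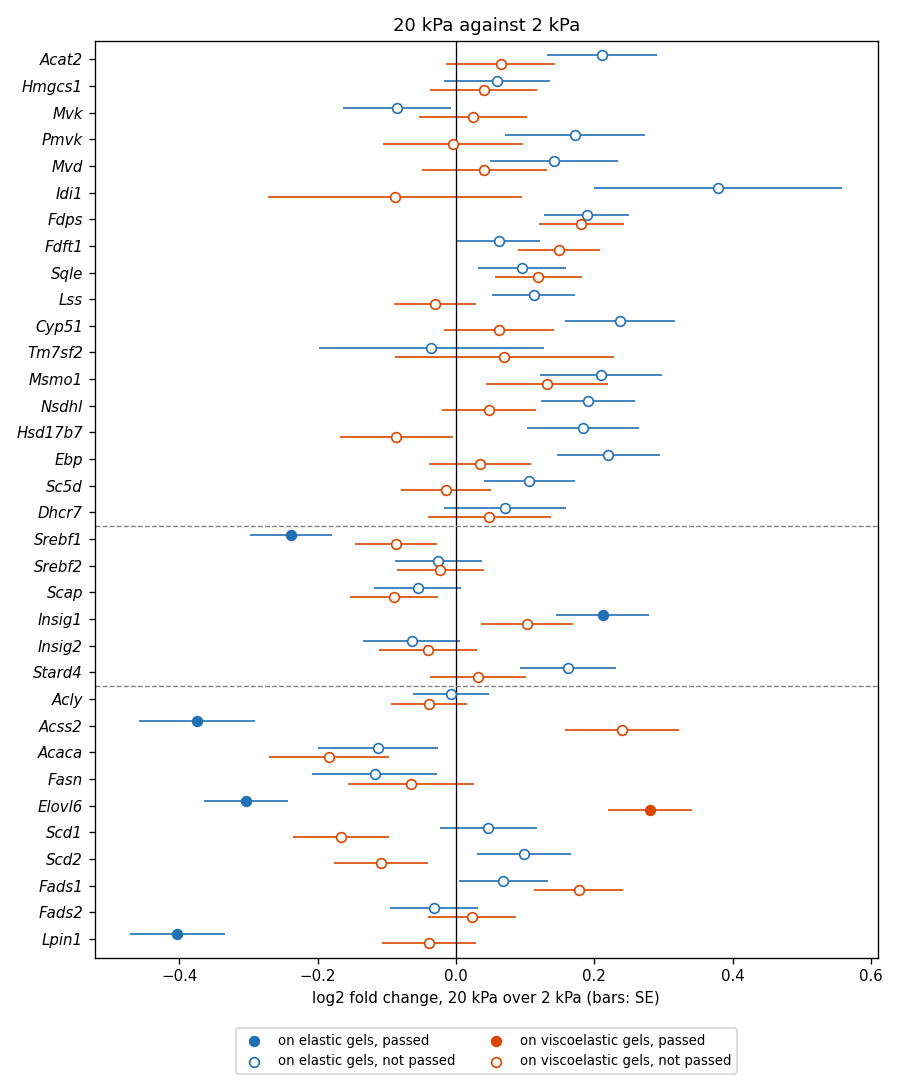
Points are log2 fold changes of each member, 20 kPa over 2 kPa, on elastic (blue) and viscoelastic (orange) gels, with bars of 1 SE from edgeR. Filled points passed an adjusted p under 0.05. Most sterol genes lie right of 0 on elastic gels, all of them unfilled, and Elovl6 is filled on both sides of 0, at −0.30 and 0.28.

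The difference between the stiffness effects was tested as an interaction, in which the effect for elastic gels is subtracted from the effect for viscoelastic gels. Of the 34 members 3 passed, 8.82% against 7.56% of all genes tested (4.45% positive and 3.12% negative), all in the fatty acid branch and all positive. Acss2 had an interaction of 0.61 (SE 0.12, edgeR adjusted p = 0.00512) on the log2 scale, with a fall at 20 kPa on elastic gels and a positive value that did not pass on viscoelastic gels. Elovl6 had 0.58 (SE 0.086, edgeR adjusted p = 0.000848) and Lpin1 0.36 (SE 0.097, edgeR adjusted p = 0.0327). For Elovl6 the order of means was 2 kPa Elastic at 107, 20 kPa Viscoelastic at 91.5, 20 kPa Elastic at 86.4 and 2 kPa Viscoelastic at 75.3 CPM, and the 2 middle groups did not pass the test against each other. For Acss2 it was 20 kPa Viscoelastic at 18.6, 2 kPa Elastic at 17.4, 2 kPa Viscoelastic at 15.8 and 20 kPa Elastic at 13.4 CPM. The call of Lpin1 was kept only without 2 kPa Elastic replicate 3, 2 kPa Viscoelastic replicate 2 or 20 kPa Elastic replicate 1 (edgeR adjusted p up to 0.0884), while those of Acss2 and Elovl6 held without any sample in turn. In the sterol branch 14 of 18 genes had a negative interaction and none passed, with 1 gene, Hsd17b7 at −0.27 (SE 0.11, edgeR adjusted p = 0.175), at an unadjusted p under 0.05, and DESeq2's Wald test called none. Of all 14542 genes tested, 7719 had a positive interaction and 3267 an unadjusted p under 0.05. Fabp4 also had a positive interaction, 0.90 (SE 0.21, edgeR adjusted p = 0.0173), which was lost without 2 kPa Elastic replicate 1 (edgeR adjusted p = 0.0519), and its part in these results was not tested.

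**Figure D4:**
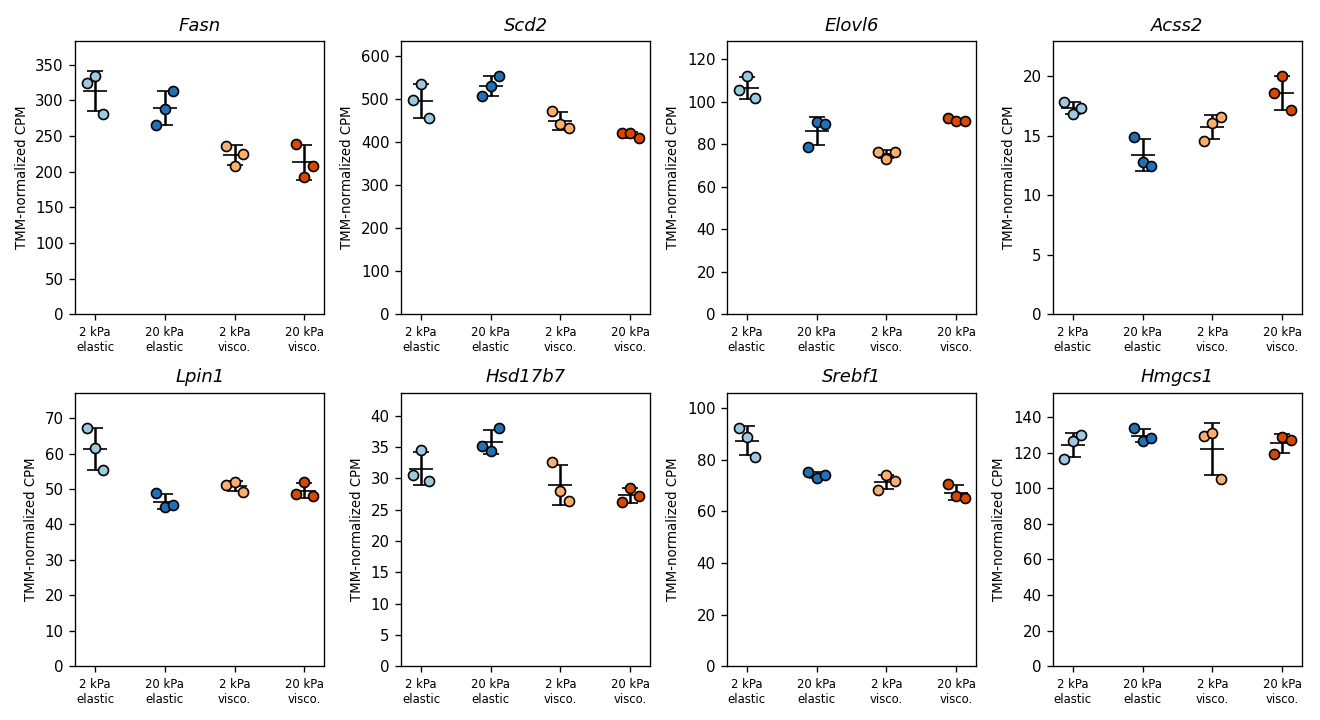
TMM-normalized CPM of 8 members in each of the 12 samples, with the mean and SD of the 3 replicates of a group in black and axes that start at 0. Fasn is lower on both viscoelastic gels than on either elastic gel, Elovl6 and Lpin1 are highest on 2 kPa Elastic, Acss2 is lowest on 20 kPa Elastic, and Hmgcs1 overlaps across all 4 groups.

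Set side by side, the branches moved apart mainly where 2 kPa Elastic was in the comparison. The median log2 fold change of the sterol branch minus that of the fatty acid branch was 0.20 for viscoelasticity at 2 kPa, 0.04 for viscoelasticity at 20 kPa, 0.23 for stiffness on elastic gels and 0.08 for stiffness on viscoelastic gels. With a sample left out these differences ran from 0.172 to 0.246, from −0.00058 to 0.0704, from 0.161 to 0.246 and from 0.0342 to 0.136, so at 20 kPa the sign turned without 20 kPa Viscoelastic replicate 2. A branch level was also taken in each sample, as the mean over its genes of log2 CPM minus the mean of the gene over the 12 samples. The fatty acid branch was at 0.123 ± 0.0707 on 2 kPa Elastic, 0.0106 ± 0.0278 on 20 kPa Elastic, −0.0727 ± 0.0109 on 2 kPa Viscoelastic and −0.0609 ± 0.0267 on 20 kPa Viscoelastic (SD, n = 3 each). All 6 viscoelastic samples had a lower fatty acid level than all 6 elastic samples. The sterol branch was at −0.0658 ± 0.0284, 0.0739 ± 0.0517, −0.0281 ± 0.0801 and 0.0200 ± 0.0759 in the same order, and was thus lowest on 2 kPa Elastic. Its samples on 2 kPa Viscoelastic overlapped with both elastic groups, and those on 20 kPa Viscoelastic lay above 2 kPa Elastic and overlapped with 20 kPa Elastic. The sterol level minus the fatty acid level was −0.227 to −0.137 in the 3 samples on 2 kPa Elastic and −0.0400 to 0.179 in the other 9. These levels are descriptions of the list and carry no test. Over the 5 comparisons, 9 of 10 fatty acid genes passed at least once, all but Fads2, 4 of 18 sterol genes and 4 of 6 regulators, beside 45.8% of all genes tested. Passing in 2 or more comparisons was seen for 5 fatty acid genes, 1 regulator and 0 sterol genes, beside 21.8% of all genes tested. The comparisons share groups of samples, and the difference between the branches was not tested.

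**Figure D5:**
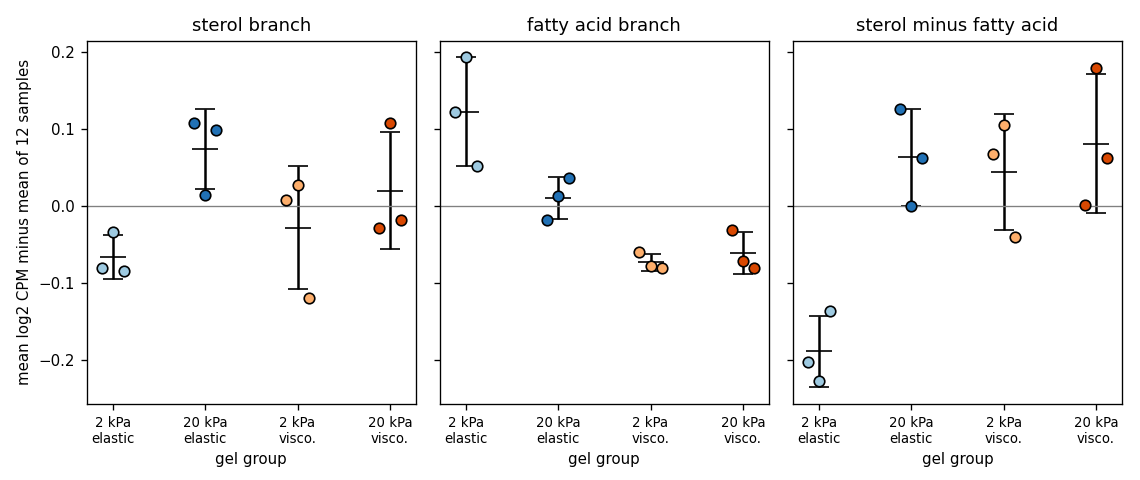
Each point is a sample, placed at the mean over the genes of a branch of log2 CPM minus the mean of the gene over the 12 samples. Black marks give the mean and SD of 3 samples. The fatty acid level of the 6 viscoelastic samples lies below that of the 6 elastic samples, and the difference between the branches is lowest on 2 kPa Elastic.

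Members of the sterol branch that did not pass in any comparison were 14 of 18, from Hmgcs1, the first step committed to HMG-CoA, to Dhcr7, the last reductase. Hmgcs1 was at 124 ± 6.84, 129.6 ± 3.70, 122 ± 14.6 and 125 ± 5.12 CPM on 2 kPa Elastic, 20 kPa Elastic, 2 kPa Viscoelastic and 20 kPa Viscoelastic. Its groups overlapped, and its 4 log2 fold changes between pairs of groups lay from −0.05 to 0.06. Insig2, the second INSIG gene, was at 43.6, 41.8 and 38.3 CPM on 2 kPa Elastic, 37.9, 39.7 and 40.8 on 20 kPa Elastic, 40.8, 36.7 and 37.8 on 2 kPa Viscoelastic and 35.4, 40.9 and 35.7 on 20 kPa Viscoelastic. The groups of Insig2 overlapped, and it passed in no comparison. Stard4, which carries cholesterol between membranes, passed in none either, with means from 41.4 to 46.3 CPM.

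Promoter sequences were compared, since the members share a family of regulators. Windows of 250 bases upstream of the start site were available from RefSeq (GRCm38.p6) for 27 of the 34 members, without Fdps, Fdft1, Sqle, Stard4, Scd1, Scd2 and Fads1. Both strands were searched for 4 motifs, none of which contains another: the sterol regulatory element TCACNCCAC, the CCAAT box CCAAT bound by NF-Y, the GC box GGGCGG bound by SP1, and the E-box CACGTG. The stretches below are 120 bases each, free of annotated exons, from members that the results turn on. Matches on either strand are in capitals, and positions are counted back from the RefSeq start site.
Hmgcs1: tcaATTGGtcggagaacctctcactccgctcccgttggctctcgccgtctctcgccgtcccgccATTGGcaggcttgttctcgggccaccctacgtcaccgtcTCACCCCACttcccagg
Hsd17b7: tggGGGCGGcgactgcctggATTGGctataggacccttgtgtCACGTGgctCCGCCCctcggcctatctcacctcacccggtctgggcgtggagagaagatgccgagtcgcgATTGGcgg
Insig1: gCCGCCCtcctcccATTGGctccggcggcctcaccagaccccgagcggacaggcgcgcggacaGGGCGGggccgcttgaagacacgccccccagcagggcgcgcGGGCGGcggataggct
Srebf1: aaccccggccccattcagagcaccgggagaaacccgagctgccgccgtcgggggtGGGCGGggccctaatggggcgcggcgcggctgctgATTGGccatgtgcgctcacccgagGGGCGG
Fasn: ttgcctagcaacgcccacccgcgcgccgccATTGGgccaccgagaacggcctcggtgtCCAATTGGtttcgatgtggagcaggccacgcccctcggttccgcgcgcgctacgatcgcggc
Acss2: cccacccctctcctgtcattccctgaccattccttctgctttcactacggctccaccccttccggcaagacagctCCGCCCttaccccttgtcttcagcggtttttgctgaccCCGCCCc
Elovl6: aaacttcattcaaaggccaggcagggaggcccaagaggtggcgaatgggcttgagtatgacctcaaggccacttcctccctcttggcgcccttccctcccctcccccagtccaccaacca
Hmgcs1 (chr13:119690111-119690230, plus strand, positions −240 to −121) is shown because it held the only match to the strict sterol element among the members, TCACCCCAC, beside CCAAT boxes read as ATTGG on the printed strand. Hsd17b7 (chr1:169969271-169969390, minus strand, positions −185 to −66) is the sterol gene that fell at 20 kPa, and Insig1 (chr5:28071182-28071301, plus strand, positions −230 to −111) and Srebf1 (chr11:60210472-60210591, minus strand, positions −120 to −1) are the regulators that changed with stiffness on elastic gels. Srebf1 has outer starts as well, and the stretch lies before an inner start. Fasn (chr11:120824548-120824667, minus strand, positions −120 to −1) fell at both stiffnesses, and 2 of its CCAAT matches share bases on opposite strands. Acss2 (chr2:155517828-155517947, plus strand, positions −215 to −96) and Elovl6 (chr3:129532136-129532255, plus strand, positions −250 to −131) had the interaction. The CCAAT match of Acss2 lies nearer to the start site than the stretch shown, and the whole 250 bases of Elovl6 held none of the 4 motifs.

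A CCAAT box was present upstream of 14 of 15 sterol genes, 4 of 5 regulators and 2 of 7 fatty acid genes (Acss2 and Fasn), against 40.5% of the 10882 tested genes with a window and 37.5% of all 27025 genes with one. A GC box was present for 14 of 15, 5 of 5 and 3 of 7, against 62.9% of tested genes. An E-box was present for 3 of 15, 2 of 5 and 0 of 7, against 9.61% of tested genes, and the sterol element for 1 of 27 members against 1.26%. CCAAT and GC boxes were thus near universal upstream of the sterol genes, and the difference between the branches was not tested. A match is a description of the sequence and not of binding, and the 7 members without a window include the 2 sterol genes that rose at 20 kPa.

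Other genes of the same metabolism were counted from lists of the rest of each pathway, also set with earlier results known. Of 12 further sterol genes, 0 rose and 5 fell on viscoelastic gels at 2 kPa, or 41.7% against 19.9% of all genes tested. At 20 kPa 1 rose and 6 fell, or 58.3% against 33.5%. With stiffness 2 rose and 2 fell on elastic gels, or 33.3% against 14%. On viscoelastic gels none passed and DESeq2's Wald test called 0. There 2 had an unadjusted p under 0.05, beside 2768 of all 14542 genes tested. By the rule for genes outside the list Lbr is named, since its change at 20 kPa was the largest of these 12 genes, a lamin B receptor that is also a sterol reductase of the same step as Tm7sf2. It was at 51.6, 52.5 and 50.9 CPM on 2 kPa Elastic, 45, 45.5 and 38 on 2 kPa Viscoelastic, 62.5, 62.4 and 75.4 on 20 kPa Elastic and 39.2, 39 and 40.3 on 20 kPa Viscoelastic. Its log2 fold change was −0.27 (SE 0.079, edgeR adjusted p = 0.026) at 2 kPa and −0.76 (SE 0.079, edgeR adjusted p = 7.5e-05) at 20 kPa. The 2 kPa call was lost without 2 kPa Elastic replicate 1 or 2 or 2 kPa Viscoelastic replicate 3 (edgeR adjusted p up to 0.115).

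Of 12 further fatty acid and glycerolipid genes tested, 0 passed on viscoelastic gels at 2 kPa by edgeR or by DESeq2, beside 19.9% of all genes tested in edgeR. An unadjusted p under 0.05 was seen for 1 of them, beside 4968 of all 14542 genes tested. At 20 kPa 1 rose and 4 fell, or 41.7% against 33.5%. Of 6 genes of the sterol sensor LXR and its targets, 1 rose and none fell at 2 kPa, or 16.7%, and 1 rose and 2 fell at 20 kPa, or 50%. Of 10 genes of fatty acid oxidation, 1 rose and 1 fell at 2 kPa, or 20%, and 3 rose and none fell at 20 kPa, or 30%, both near the share of all genes. No oxidation gene met the rule. Acadl rose in both viscoelastic comparisons, but its change was not the largest of its list. Its log2 fold change was 0.17 (edgeR adjusted p = 0.0373) at 2 kPa and 0.21 (edgeR adjusted p = 0.00796) at 20 kPa. Both calls were lost with an exon length correction. Ppargc1a, a coactivator that promotes oxidation, is named after its values were seen, as the gene that fell at 2 kPa. At 20 kPa Ppargc1a did not pass, with a log2 fold change of −0.03 (edgeR adjusted p = 0.937). It was at 11.4, 7.81 and 5.35 CPM on 2 kPa Elastic, 3.04, 3.48 and 2.65 on 2 kPa Viscoelastic, 3.43, 3.12 and 3.45 on 20 kPa Elastic and 3.09, 3.16 and 3.59 on 20 kPa Viscoelastic. It was thus highest on 2 kPa Elastic, like Lpin1 and Elovl6, though widely spread there. Its log2 fold change was −1.43 (SE 0.21, edgeR adjusted p = 0.000379) for viscoelasticity at 2 kPa and −1.30 (SE 0.20, edgeR adjusted p = 0.000878) for stiffness on elastic gels, and both calls held without any sample in turn.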

How the data were processed

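RNA was sequenced from mouse ear fibroblasts in 12 samples, 3 biological replicates in each of 4 groups. Per the labels and methods, the authors used Trimmomatic for trimming, STAR for alignment to mm10 and featureCounts with a GENCODE annotation, and deposited raw counts per gene. The release, strand setting and treatment of multi-mapping reads are not given in the sources used here, which limits genes that overlap others (12 of the 34 members share exon bases with another gene) and the close copies Scd1 and Scd2.

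Counts were tested with edgeR 4.0.16 (R 4.3.3) on all 12 samples with a coefficient for each group, after filterByExpr (minimum count 10, minimum total 15) and TMM (factors 0.968 to 1.03). The quasi-likelihood p-values were adjusted by Benjamini-Hochberg over 14542 genes, and an adjusted p under 0.05 was the threshold. On simulated counts for viscoelastic against elastic gels at 2 kPa, run on 14420 genes, 55% of genes changed 1.25-fold and 94% of those changed 1.5-fold were recovered. Only 100 genes of each fold were changed there, drawn from the better counted genes. In the real comparison 2892 of 14542 genes passed, so these rates may not hold for it. The biological coefficient of variation was 7.5%. Log2 CPM used a prior count of 2. Gene positions and lengths came from GENCODE vM21, and CPM per kb divides the mean CPM by the length of merged exons.

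The members, the branches and the other lists were chosen with earlier results of these data known, so lists are described by counts and medians only. Values in every sample are given for members that passed most often in their branch, that went against their branch, or that had an interaction, and for Srebf1, Srebf2, Insig1 and Insig2. A gene outside the list is named where it passed in both viscoelastic comparisons and had the largest change of its list over the 2 comparisons together. At 2 kPa alone the largest change among the further sterol genes was that of Tmem97, −0.39 on the log2 scale.

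Alternatives were DESeq2 size factors, total counts alone, DESeq2 1.42.0 (Wald test), 2 other filters, the samples of a comparison alone, a replicate block, exon length and GC corrections by loess, a threshold of 0.01, and each sample left out. The length and GC corrections used the 14126 tested genes with a known exon length.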

Additional observations from a re-analysis of the deposited data

Results flagged for a closer look

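Acss2, Elovl6 and Lpin1 are set apart because the effect of stiffness differed between elastic and viscoelastic gels by the interaction test itself. The interaction was 0.61 on the log2 scale for Acss2, 0.58 for Elovl6 and 0.36 for Lpin1 (edgeR adjusted p = 0.00512, 0.000848 and 0.0327). Acss2 fell with stiffness on elastic gels, with every 20 kPa sample below every 2 kPa sample, and every 20 kPa sample was above every 2 kPa sample on viscoelastic gels. Elovl6 showed the same order in all of its samples. The interaction of Lpin1 passed in 3 of 12 fits with a sample left out, those without 2 kPa Elastic replicate 3, 2 kPa Viscoelastic replicate 2 or 20 kPa Elastic replicate 1.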

How the results depend on the processing

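Of 27 calls of a member in a comparison, 12 held in each alternative run and with each sample left out. At an adjusted p under 0.01 the count of members was 3 for viscoelasticity at 2 kPa, 5 at 20 kPa, 3 for stiffness on elastic gels and 0 on viscoelastic gels. For viscoelasticity at 2 kPa it was 3 with the exon length correction and 3 with the replicate block plus length and GC correction, and GC correction alone gave 2 up and 5 down. For stiffness on elastic gels it was 8 with total counts alone, 9 with DESeq2's Wald test and 8 with the length correction, and DESeq2 size factors and GC correction each gave 3 up and 4 down. For stiffness on viscoelastic gels it was 0 with the 6 samples alone, 0 with the replicate block and 0 with the block plus length and GC correction, under which the sterol minus fatty acid median was 0.00882. The lower counts at the stricter threshold follow from its construction, and the cause of the other changes was not tested. With a sample left out the counts ran from 3 to 8 and from 5 to 13 for viscoelasticity at 2 and 20 kPa, from 3 to 10 and from 0 to 1 for stiffness on elastic and viscoelastic gels, and from 2 to 3 for the interaction. The log2 fold change of Scd1 for viscoelasticity at 2 kPa, −0.03 and not past the threshold, turned to 0.0060 with total counts alone and ran from −0.074 to 0.047 with a sample left out.

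Replicate numbers are shared between groups, and neither the labels nor the methods state a pairing. Correlations of deviations in same-numbered samples ran from −0.160 to 0.308 over 12 pairs of samples. Between the 2 viscoelastic groups they were 0.184, 0.308 and 0.0483, all positive. They were not compared with those of differently numbered samples, so whether samples were paired was not tested. With the replicate block the counts were 5 and 10 for viscoelasticity at 2 and 20 kPa, 4 and 0 for stiffness on elastic and viscoelastic gels, and 3 for the interaction. The block ended the calls of Acaca at 2 kPa (edgeR adjusted p = 0.0569), of Fdps and Srebf2 at 20 kPa (0.054 and 0.0525), of Insig1 on elastic gels (0.0731) and of Elovl6 on viscoelastic gels (0.0572). Joined with length and GC correction it also ended those of Acat2 and Lpin1 at 2 kPa (0.08 and 0.0712), of Fdft1, Scap, Acly and Acaca at 20 kPa (0.0503, 0.314, 0.0756 and 0.0588) and of Srebf1 on elastic gels (0.0866), and the fatty acid median on elastic gels was −0.0028.

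With 3 samples in a group, small changes often miss the threshold, and a gene that did not pass is not shown to be unchanged.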
